A study of Mus musculus with 4 samples.

Results

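The Nr4a nuclear receptors, Nr4a1, Nr4a2 and Nr4a3, are 3 of the 31053 genes counted in single cells of the mouse ventromedial prefrontal cortex (vmPFC), and they were chosen by name after Nr4a2 had been seen to be higher in one set of virus-labelled neurons. That contrast, barcode-high against barcode-zero L6-Npy neurons, is therefore given as a description with no test, and so are all differences between cell clusters, which were made from the same cells. The tests concern these genes in other subtypes of the same libraries and in splits that used neither the virus nor an Nr4a gene.

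The study, MERGE-seq, injected retrograde AAV (rAAV2-retro) carrying EGFP and a barcode into male C57BL/6 mice labelled as 8 weeks old. Each of 5 brain regions received a different barcode, and dissociated vmPFC cells were profiled with 10x Genomics chemistry. The paper gives that age for the injection, and the cells were taken weeks later. All mice received the viruses, so a barcode-zero neuron is a neuron of an injected animal in which no viral UMI was counted and not a cell of an untreated control. The 3 unsorted libraries came from 1 mouse each and the sorted library pooled 3 mice after fluorescence sorting, so that values of the sorted group have no replicate. That sort enriched for EGFP, so barcode-zero neurons of the sorted library had passed a gate for the viral label and those of the unsorted libraries had not. The deposited matrices carry 1 pooled feature for the viral barcodes, so the projection target of a cell is not analysed here. The paper found many zero counts of the barcodes in such libraries, and called labelled cells from separately amplified barcode libraries with higher limits. A barcode-zero neuron may therefore have been labelled, and the groups used here are not the paper's barcoded and non-barcoded cells. The brain slices were incubated with blockers of AMPA and NMDA receptors before enzymatic digestion at warm temperature, and every level below was measured after that treatment.

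The files held 24801 cell barcodes, of which 21263 passed the filters, and 9368 neurons carried one of the authors' 7 excitatory subtype names. Between 54728191 and 87809114 UMIs were counted per library, and the median per neuron ran from 21343.5 to 23213 in the unsorted libraries and reached 31669 in the sorted one. From 0.580% to 0.867% of the cell barcodes of a library were also found in another library. Of the named neurons, 9335 fell in clusters that carried excitatory markers and 33 did not. Levels are given in CPM, the UMIs of a gene scaled to the total UMIs of the cells summed in a library and group.

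The Nr4a genes encode orphan nuclear receptors, transcription factors that act without a classical ligand and bind DNA as monomers, as homodimers or, for Nr4a1 and Nr4a2, with retinoid X receptors. In neurons they are immediate-early genes, switched on quickly by calcium and cyclic AMP signals through CREB, MEF2 and SRF, and in vessels and myeloid cells they respond to growth factors and inflammatory stimuli. Nr4a2 (Nurr1) is also needed for midbrain dopamine neurons and marks claustrum and deep cortical neurons, where it is expressed as part of cell identity.

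In GENCODE vM21 on GRCm38, Nr4a1 (ENSMUSG00000023034) lies on chromosome 15 from 101254269 to 101274795 on the plus strand, Nr4a2 (ENSMUSG00000026826) on chromosome 2 from 57106830 to 57124003 on the minus strand, and Nr4a3 (ENSMUSG00000028341) on chromosome 4 from 48045153 to 48086447 on the plus strand. No other annotated gene overlapped any of them. The sequences before their RefSeq start sites are shown because all 3 genes moved together with the activity genes described below. The capitals mark TGACG or its reverse complement CGTCA, the core of the cyclic AMP response element. The sequences are from RefSeq, GRCm38.p6, printed 5′ to 3′ on the strand of the gene, and that of Nr4a3 was ended where the first GENCODE exon begins. The Nr4a1 stretch lies inside the GENCODE gene, before an internal start.
Nr4a1, chr15:101266596-101266845, plus strand: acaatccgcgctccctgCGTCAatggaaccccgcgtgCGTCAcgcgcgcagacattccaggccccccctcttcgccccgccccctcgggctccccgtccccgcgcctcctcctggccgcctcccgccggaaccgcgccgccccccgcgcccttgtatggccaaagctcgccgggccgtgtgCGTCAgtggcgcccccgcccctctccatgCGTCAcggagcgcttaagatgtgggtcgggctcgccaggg
Nr4a2, chr2:57124004-57124253, minus strand: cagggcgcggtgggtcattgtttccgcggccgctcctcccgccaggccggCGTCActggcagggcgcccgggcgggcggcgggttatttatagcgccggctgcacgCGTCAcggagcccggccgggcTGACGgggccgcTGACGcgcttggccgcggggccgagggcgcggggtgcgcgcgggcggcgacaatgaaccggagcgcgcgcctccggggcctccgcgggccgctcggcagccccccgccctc
Nr4a3, chr4:48045055-48045152, plus strand: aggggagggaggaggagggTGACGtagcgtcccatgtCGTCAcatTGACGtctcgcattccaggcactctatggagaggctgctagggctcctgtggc

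Each member had 4 matches to TGACG, on either strand, in the 250 bases before its RefSeq start. The shorter stretch printed for Nr4a3 holds 3 of its 4 matches, and the other lies past the end of that stretch. Of all 32851 promoters in the table, 17.8% held at least 1 such match in the same window and 0.688% held 3 or more. The printed stretches of Nr4a1, Nr4a2 and Nr4a3 had 74.4%, 80% and 61.2% G or C. The share among promoters of like composition was not counted. The full element TGACGTCA, found in 1.55% of promoters, and AAAGGTCA, the element that Nr4a monomers bind, found in 1.34%, were in none of the 3 windows. A match is a description of the letters and not evidence of binding.

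Across the excitatory subtypes the members had different orders. Nr4a1 was highest in L2/3-Rorb neurons, with 182 to 214 CPM in the 3 unsorted libraries (mean 198.7 ± 16.4, SD) and 294 CPM in the sorted library. L6-Syt6, L5-S100b and L6-Npy followed at 129.7 ± 8.4, 128.7 ± 12.3 and 118 ± 22.8 CPM, and neighbours among these overlapped in their ranges. L5-Bcl6, L2/3-Calb1 and L5-Htr2c were lower and overlapped too, at 83.3 ± 13, 82.9 ± 14.9 and 81.2 ± 11 CPM.

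Nr4a2 was highest in the deep layers, and the 3 unsorted libraries of L6-Npy neurons had 107, 135 and 107 CPM. L6-Syt6 neurons, which carry markers of corticothalamic cells, had 93.5, 92.6 and 104.5 CPM, just below that range. L5-Bcl6 varied widely, from 28.1 to 80.9 CPM, and overlapped L5-S100b at 45.4 ± 14.4 CPM, which overlapped L2/3-Rorb at 37.7 ± 6.5 CPM. L2/3-Calb1 neurons had 14.1 ± 11.4 CPM.

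In L5-Htr2c neurons Nr4a2 was close to absent: 1 UMI was counted in 122 neurons of the first unsorted library, 21 in 97 of the second and 1 in 98 of the third. These neurons had a median of 13886.5 to 15638 UMIs, and 0.820% to 3.09% of them had an Nr4a2 UMI, against 32.2% ± 0.7 of L6-Npy neurons (19031 to 20812 UMIs) and 44.8% ± 1.8 of L6-Syt6 neurons (22502 to 23820.5 UMIs). After thinning each cell to 10000 UMIs the shares were 1.36% ± 1.67 in L5-Htr2c, 25.0% ± 1.6 in L6-Npy and 31.9% ± 1.2 in L6-Syt6. L6-Syt6 thus had a larger share of neurons with an Nr4a2 UMI than L6-Npy although its CPM was lower.

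Nr4a3 had its highest level in L6-Npy as well, at 111.8 ± 12.3 CPM and 150 CPM in the sorted library. The second place went to L5-Htr2c at 70.8 ± 2.7 CPM, the subtype with the lowest Nr4a2, and L6-Syt6 followed at 62.6 ± 1.5 CPM. From L5-S100b (50.5 ± 5.4 CPM) down to L2/3-Calb1 (37.1 ± 7.4 CPM) neighbouring subtypes overlapped. In the sorted library Nr4a3 exceeded all 3 unsorted libraries in L6-Npy, L6-Syt6, L5-S100b, L5-Bcl6 and L2/3-Rorb neurons. Nr4a1 did so in the same subtypes, and Nr4a2 in L6-Syt6 and L2/3-Rorb only. Sorting, the pooling of mice and depth differ together there and cannot be told apart.

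**Figure D1:**
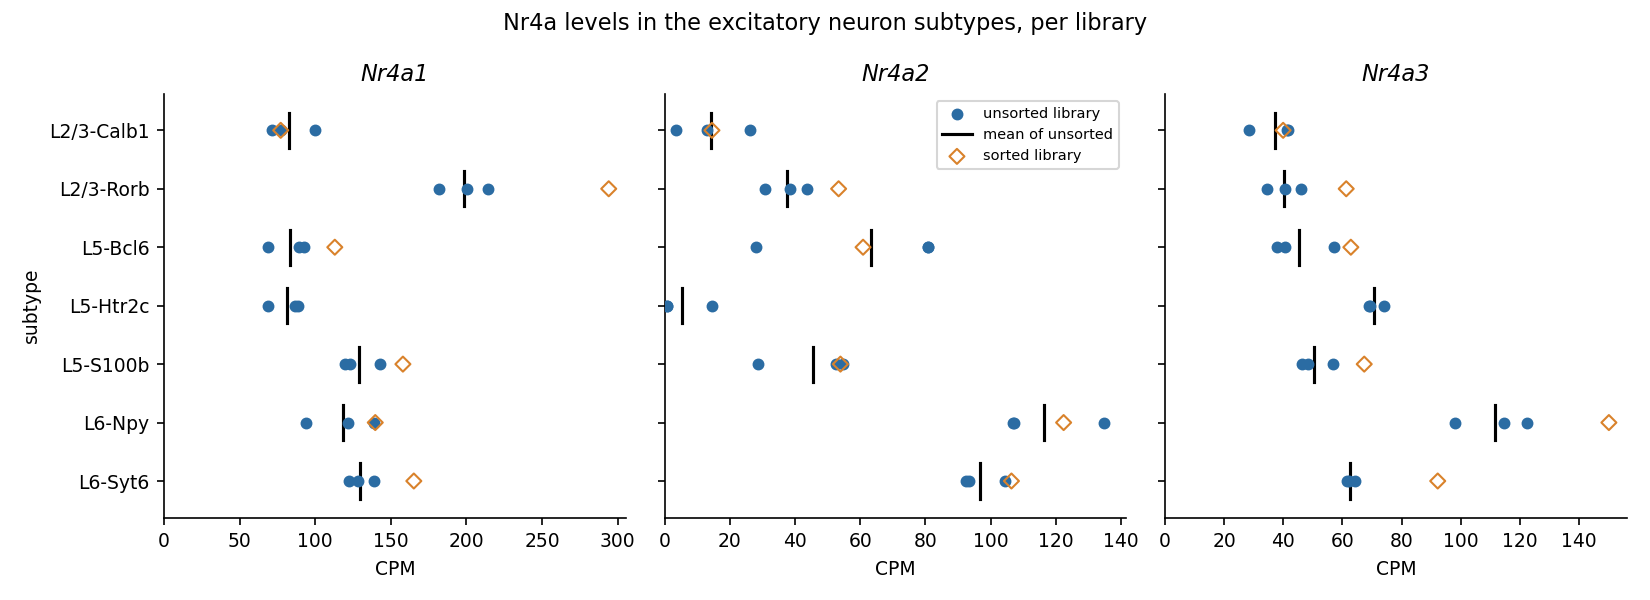
Level of each Nr4a gene in CPM (x axis, separate scale for each gene) in the 7 excitatory subtypes (y axis), with a point for each unsorted library, a bar for their mean and an open diamond for the sorted library. Nr4a1 is highest in L2/3-Rorb, whereas Nr4a2 and Nr4a3 are highest in L6-Npy, and the sorted library has under 10 L5-Htr2c neurons and no value there.

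One small cluster made here, led by Cplx3, Nxph4 and Tmem40, genes known from layer 6b, had more Nr4a2 than any of the 7 subtypes. Its 62 unsorted neurons had 217 ± 37 CPM of Nr4a2, with 98.9 ± 29.6 CPM of Nr4a1 and 89.1 ± 6.4 CPM of Nr4a3, and 90% of its 10 neurons in the sorted library had an Nr4a2 UMI. Over all 4 libraries, 71 neurons of this cluster carried the authors' name L6-Syt6, of which 42 were barcode-zero and 7 barcode-high.

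The genes whose levels followed each member most closely were ranked by Pearson's r of log2(CPM + 1) over 27 sums of a library and subtype, among 10519 genes with a mean of at least 5 CPM. These sums share libraries, depth and subtype names and r is a description. Nr4a1 was followed by Egr1 (r = 0.90), Rxrg (0.86), Npas4 (0.85), Adra1b (0.84) and Trib1 (0.84), of which Egr1 and Npas4 are activity-dependent transcription factors and Rxrg encodes a retinoid X receptor. Nr4a2 was followed by Rasgrp1 (0.84), Mctp1 (0.84), 3110035E14Rik (0.84), Pik3r1 (0.82) and Gm28928 (0.82). Nr4a3 was followed by Zdbf2 (0.84), Dhcr7 (0.82), Dars (0.81) and Slc20a1 (0.81), of which Dhcr7 encodes an enzyme of cholesterol synthesis. The members resembled each other less, with r of 0.50 for Nr4a1 and Nr4a2, 0.38 for Nr4a2 and Nr4a3 and 0.17 for Nr4a1 and Nr4a3.

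Within single neurons, each thinned to 10000 UMIs, the members were often found together. In L6-Npy neurons of the unsorted libraries, 50.7% ± 3.4 of the Nr4a1-positive and 7.89% ± 2.0 of the Nr4a1-negative neurons had an Nr4a2 UMI. The same shares in L6-Syt6 were 44.4% ± 1.7 and 18.1% ± 1.7. Nr4a3 was found in 68.4% ± 3.5 of Nr4a1-positive and 44.5% ± 3.2 of Nr4a1-negative L6-Npy neurons, so its share without Nr4a1 was larger. All 3 were present in 16.3% ± 0.8 of L6-Npy and 14.8% ± 0.6 of L6-Syt6 neurons, and none of them in 31.0% ± 0.5 and 29.0% ± 1.4.

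Outside the excitatory neurons, cells were named from clusters by marker genes and levels were taken from the unsorted libraries. Nr4a1 was far higher in vessels and myeloid cells than in any neuron subtype, with 844 to 880 CPM in endothelial-like cells, 676 to 723 CPM in mural-like cells, 402 to 608 CPM in macrophage-like cells and 404 to 430 CPM in microglia-like cells. Cells resembling oligodendrocyte precursors (OPC) had 172.8 ± 12.9 CPM, inhibitory-like neurons 100.5 ± 7.9 CPM, astrocyte-like cells 82.7 ± 3.5 CPM and oligodendrocyte-like cells 40.7 ± 7.2 CPM. Of these neighbours only macrophage-like and microglia-like cells overlapped.

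Nr4a2 was high in mural-like (357 ± 12 CPM) and endothelial-like cells (279 ± 9 CPM). It was low in microglia-like cells (4.22 ± 0.63 CPM), where Nr4a1 stood at 416.6 ± 13.1 CPM, and lowest in oligodendrocyte-like cells (2.85 ± 0.78 CPM), which overlapped them. Nr4a3 remained below 35 CPM on average in each class except mural-like cells, at 75.1 ± 25.6 CPM, and endothelial-like cells had only 7.71 ± 3.10 CPM of it. Endothelial-like and microglia-like cells therefore held much Nr4a1 and little Nr4a3.

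Among the mural-like cells, the members were concentrated in the cluster led by Acta2, Tagln and Myh11, genes of smooth muscle contraction. These 97 cells had 1225 ± 114 CPM of Nr4a1, 1122 ± 18 CPM of Nr4a2 and 226 ± 71 CPM of Nr4a3. The 500 cells of the cluster led by Kcnj8, Vtn and Atp13a5, genes of pericytes, had 497 ± 37, 58.9 ± 14.6 and 14.6 ± 4.2 CPM. No library overlapped between these clusters for any member, and the share of all genes without overlap was not counted.

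Microglia-like cells also fell in a pair of clusters. The 1505 cells of the cluster led by Tnf, Dusp2 and Il1a had 564 ± 24 CPM of Nr4a1, and the 1243 cells of the cluster led by Cx3cr1, P2ry12 and Siglech, genes of unstimulated microglia, had 212 ± 17 CPM. Among inhibitory-like neurons, Nr4a1 ran from 44.1 ± 15.9 CPM in the cluster led by Tac1 and Pvalb to 194.8 ± 18.2 CPM in that led by Vip and Calb2, which also had the highest Nr4a3 at 44.6 ± 5.7 CPM. The Nr4a genes and the activity genes were left out when the clusters were made, but their neighbours in expression were not.

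**Figure D2:**
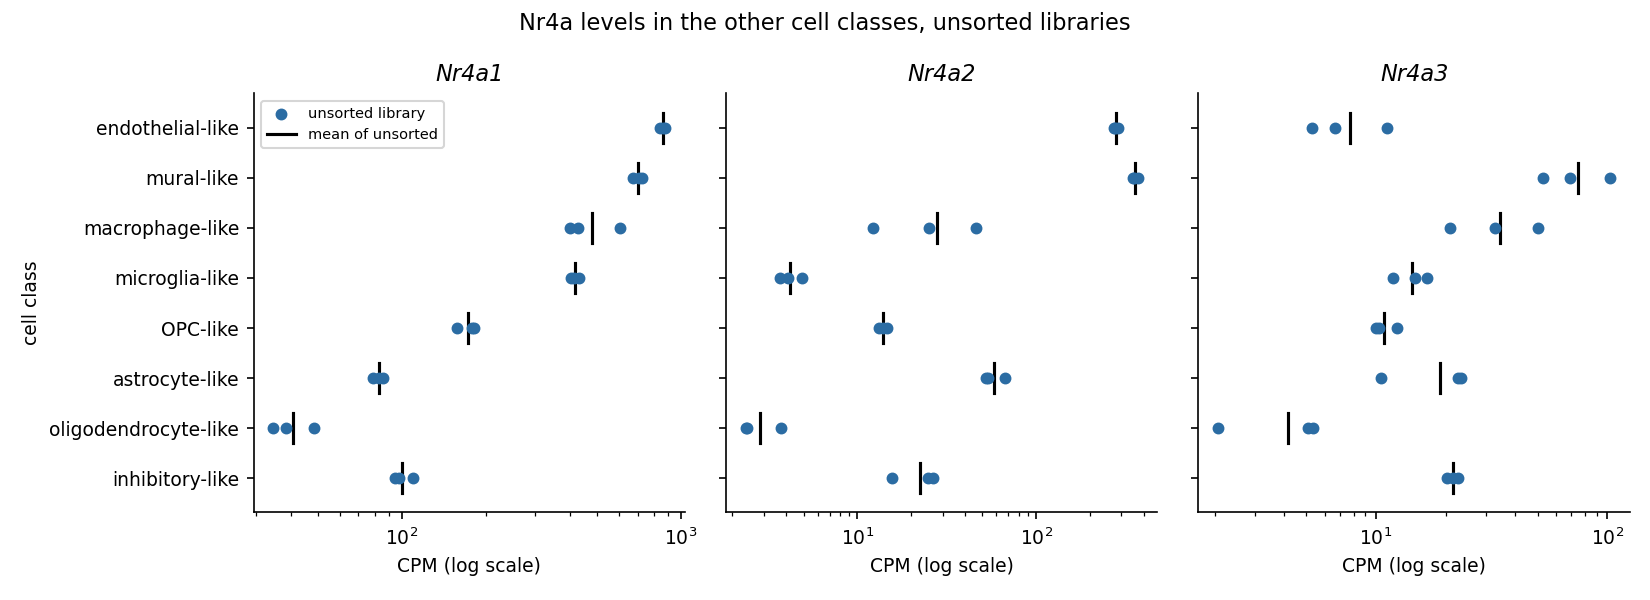
Level of each Nr4a gene in CPM on a log scale (x axis, separate scale for each gene) in 8 other cell classes (y axis), with a point for each of the 3 unsorted libraries and a bar for their mean. Nr4a1 is highest in endothelial-like cells, Nr4a2 in mural-like and endothelial-like cells and Nr4a3 in mural-like cells.

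Neurons were then divided by the viral barcode, as barcode-high with 5 or more UMIs of the viral feature and barcode-zero with none. In L6-Npy neurons, the contrast on which the members were chosen, barcode-high cells numbered 116 to 147 and barcode-zero cells 49 to 68 per library. Nr4a2 reached 156, 196 and 156 CPM in the barcode-high neurons of the 3 unsorted libraries and 220 CPM in the sorted one, against 46.1, 93.3, 62.5 and 47.6 CPM in barcode-zero neurons. Nr4a1 had 183, 162, 122 and 226 CPM against 98.0, 98.7, 79.0 and 52.7 CPM, and Nr4a3 had 142, 135, 110 and 192 CPM against 88.4, 100.3, 81.6 and 98.7 CPM. The groups did not overlap for any member. How many of all genes also had groups without overlap was not counted, here or in the contrasts below. The fitted log2 fold changes were 1.55 for Nr4a2, 1.08 for Nr4a1 and 0.66 for Nr4a3.

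The difference lay in more positive neurons and in strongly positive ones. After thinning to 10000 UMIs, 34.4% ± 3.4 of barcode-high and 14.7% ± 4.5 of barcode-zero L6-Npy neurons had an Nr4a2 UMI (45.5% and 21.5% unthinned), and 15.1% ± 3.6 against 4.16% ± 3.3 had at least 5. By amount of barcode, L6-Npy neurons with 1 to 4 viral UMIs had 34.3 to 60.4 CPM of Nr4a2, within or below the range of barcode-zero neurons, those with 5 to 19 had 103 to 175 CPM and those with 20 or more had 318 to 496 CPM. Neurons with 20 or more numbered 15 to 34 per library.

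Other genes moved with this contrast. All 21 measured activity genes, a list of immediate-early and early-response genes without the Nr4a members, had a positive log2 fold change, with a median of 0.65 beside a median of -0.00 over all genes, and their summed level was 6955 ± 721 CPM in barcode-high and 4943 ± 946 CPM in barcode-zero neurons with no overlap. The largest were Cyr61 (1.29), Egr2 (1.23), Dusp6 (1.20) and Egr4 (1.18). Cyr61 is not only an activity gene here: the paper names it as an L6-Syt6 marker and a gene higher in neurons projecting to the mediodorsal thalamus. The summed Car3-type list, markers of a claustrum-like layer 6 type, was lower in barcode-high neurons (1582 ± 36 against 1841 ± 71 CPM, no overlap). Lxn (0.47) was the 1 positive gene of its 6 tested, and Oprk1 (-0.47), Synpr (-0.29) and Nnat (-0.24) were among the negative ones. The L6b list was 115 ± 13 against 109 ± 13 CPM. Of the corticothalamic list, Foxp2 (1.46) and Rprm (0.83) had the largest log2 fold changes, while its sum was 218 ± 39 against 212.9 ± 26.3 CPM. The list of glial and vessel genes was 11.2 to 46.8 against 11.9 to 39.4 CPM and median depth 22206 against 20322 UMIs per neuron. Their part in the result was not tested.

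L6-Syt6 neurons were not the contrast of the choice, but share its libraries and viral feature, so they give no independent check. Nr4a2 was higher in their barcode-high neurons in every library. It had 113, 121, 135 and 118 CPM against 90.3, 83.5, 93.8 and 69.8 CPM, with the sorted library given last. The groups, of 376 to 441 and 94 to 766 neurons, did not overlap. The log2 fold change of Nr4a2 was 0.56 ± 0.07 (SE), with an adjusted p of 0.00340 in edgeR's quasi-likelihood test over 13436 genes. Nr4a2 was the 1 member of 3 called, which took an adjusted p under 0.05 together with a log2 change of 0.5 or more in size, beside 1.67% of all genes tested. Nr4a3 (log2 fold change 0.41 ± 0.05, adjusted p = 0.00261) and Nr4a1 (0.42 ± 0.10, adjusted p = 0.0356) stayed under the fold limit, although both were higher in 4 of 4 libraries.

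The call of Nr4a2 in L6-Syt6 was lost without the second unsorted library (log2 fold change 0.56, adjusted p = 0.0677), without the sorted library (0.49, under the fold limit), without the library as a block (0.55, adjusted p = 0.0742) and when any viral UMI made a neuron barcode-high (0.32). Leaving out the cluster led by Cplx3 and Nxph4, which was chosen after its level was seen, gave 0.58 ± 0.07. Neurons with 1 to 4 viral UMIs had 71.7, 72.0 and 85.6 CPM of Nr4a2 in the unsorted libraries, less than the barcode-zero neurons of the same library, and 93.3 CPM in the sorted library, which was more. Those with 20 or more had 177, 149, 212 and 149 CPM.

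The activity list moved with the barcode in L6-Syt6 too: 12 of 21 genes rose and none fell, with a median log2 fold change of 0.53 beside -0.00 over all genes. Egr4 (0.90 ± 0.16), Ptgs2 (0.80 ± 0.18), Dusp6 (0.73 ± 0.09) and Cyr61 (0.72 ± 0.12), in the paper also a marker of this subtype, rose most. The list's summed level was 8184 ± 255 against 6374 ± 794 CPM, with no overlap, and depth was 28608 against 24181 UMIs per neuron. Of the L6b list 1 gene of 6 rose and 4 fell, with Cplx3 (fell by 1.61) and Nxph4 (fell by 0.86) among them. The Car3-type list, higher here (679 ± 32 against 565 ± 28 CPM), had 2 genes that rose, Synpr (0.83 ± 0.20) and Nnat (0.66 ± 0.06), and the corticothalamic list had no call (2642 ± 118 against 2377 ± 23 CPM). Their part in the Nr4a differences was not tested.

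In L5-S100b neurons, a layer 5 subtype by its name, the member called was Nr4a1 and not Nr4a2. Nr4a1 had 128, 128, 147 and 183 CPM in barcode-high and 94.6, 77.8, 140 and 82.0 CPM in barcode-zero neurons, higher in 4 of 4 libraries although the groups overlapped. Its log2 fold change was 0.57 ± 0.10 (adjusted p = 0.000423), the 1 call of 3 beside 2.64% of 12030 genes. Nr4a2 (0.17 ± 0.16, adjusted p = 0.660) and Nr4a3 (-0.12 ± 0.11, adjusted p = 0.649) did not pass. The call of Nr4a1 was lost without the sorted library, at 0.40, without the library as a block (0.58, adjusted p = 0.254) and after thinning each neuron to 10000 UMIs (0.47 ± 0.14, adjusted p = 0.0552). Of the activity list, 5 of 21 genes rose and none fell, led by Nptx2 (1.20 ± 0.13) and Egr3 (0.61 ± 0.08). Of the Car3-type list 4 of 6 tested genes fell, Oprk1, Synpr, Gnb4 and Nnat, and its sum was 409.1 ± 10.6 against 615 ± 105 CPM with no overlap. Of the corticothalamic list Rprm (1.01 ± 0.14) and Fezf2 (0.55 ± 0.12) rose, with a sum of 279 ± 27 against 203 ± 36 CPM, and the activity sum was 4486 ± 169 against 3660 ± 822 CPM. Depth was 29112 against 23427 UMIs per neuron. These 3 measures were higher in 4 of 4 libraries with overlapping ranges. Their part in the Nr4a1 result was not tested.

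The barcode effect on Nr4a3 differed between these subtypes. An interaction term gave a log2 difference of 0.53 ± 0.11 (L6-Syt6 minus L5-S100b, adjusted p = 0.00600), so that 1 of 3 members was called beside 2.95% of 13385 genes. In the same fit all 6 tested Car3-type genes were positive and 3 passed, Synpr (1.97 ± 0.27), Nnat (1.29 ± 0.18) and Gnb4 (1.13 ± 0.16). The corticothalamic genes Rprm (-0.76 ± 0.16) and Fezf2 (-0.56 ± 0.16) and the L6b gene Kcnab1 (-0.81 ± 0.13) passed in the negative direction, and 2 activity genes passed in each direction. Their part in the Nr4a3 result was not tested. Nr4a3 was higher in barcode-high neurons in 4 of 4 libraries of L6-Syt6 and lower in 4 of 4 libraries of L5-S100b. For Nr4a2 (0.39 ± 0.20, adjusted p = 0.317) and Nr4a1 (-0.15 ± 0.16, adjusted p = 0.694) the difference did not pass, although Nr4a2 did without the sorted library (0.62, adjusted p = 0.000997). The Nr4a3 call was lost without the second (adjusted p = 0.0517) or the third unsorted library (0.0541), after thinning (0.0836) and without the library as a block (0.203).

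In L2/3-Rorb neurons no member was called, beside 0.142% of 10572 genes. Nr4a1 had 218, 166, 226 and 350 CPM in barcode-high and 143, 205, 183 and 101 CPM in barcode-zero neurons, higher in 3 of 4 libraries (log2 fold change 0.49 ± 0.12, adjusted p = 0.0498), and it passed both limits without the second (0.78) or the third unsorted library (0.56). Nr4a2 (0.68 ± 0.21, adjusted p = 0.245) had 10.6 to 38.1 CPM in barcode-zero and 23.3 to 69.8 CPM in barcode-high neurons, and without the second unsorted library its fold change was 1.20 (adjusted p = 0.000664). Nr4a3 gave 0.20 ± 0.17 (adjusted p = 0.880). The difference of the barcode effect between L6-Syt6 and L2/3-Rorb passed for no member, beside 0.688% of 12202 genes.

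L2/3-Calb1 and L5-Bcl6 had too few barcode-zero neurons in the sorted library, and the 3 unsorted libraries were used. In L2/3-Calb1, Nr4a2 passed with a log2 fold change of 2.05 ± 0.37 (adjusted p = 0.00606), beside 0.183% of 8727 genes. The counts behind it were small: 16 UMIs in 3 of 29 barcode-high neurons, 3 UMIs in 1 of 25 and 38 UMIs in 2 of 28, with 50% to 100% of them from a single neuron. DESeq2 did not call it (1.92, adjusted p = 1.00), nor did edgeR when any viral UMI made a neuron barcode-high (1.43, adjusted p = 0.269). In the fits without the first or the third unsorted library, after thinning and without the library as a block, Nr4a2 did not pass the filter on low counts, so its call could not be assessed there. With the call went 6 of 21 activity genes that rose, led by Egr4 (1.59 ± 0.15) and Ier2 (1.33 ± 0.21), and an activity sum of 4783 ± 352 against 3726 ± 438 CPM with no overlap. The Car3-type sum was 583 ± 69 against 807 ± 131 CPM, and mitochondrial UMIs 6.79% against 7.11%, also with no overlap. Depth was 20276 against 18311 UMIs per neuron, and the part of these values was not tested. Nr4a1 (0.53 ± 0.20, adjusted p = 0.697) passed only without the third unsorted library (0.81, adjusted p = 0.0410), and Nr4a3 gave 0.34 ± 0.23 (adjusted p = 0.937). In L5-Bcl6 no member passed, beside 0.0659% of 9107 genes, with 0.11 ± 0.26 for Nr4a2 and 0.57 ± 0.24 for Nr4a3 (adjusted p = 0.982 and 0.721). Without the third unsorted library, Nr4a1 there gave 1.42 ± 0.24 (adjusted p = 5.75e-06) in place of 0.36 ± 0.27.

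**Figure D3:**
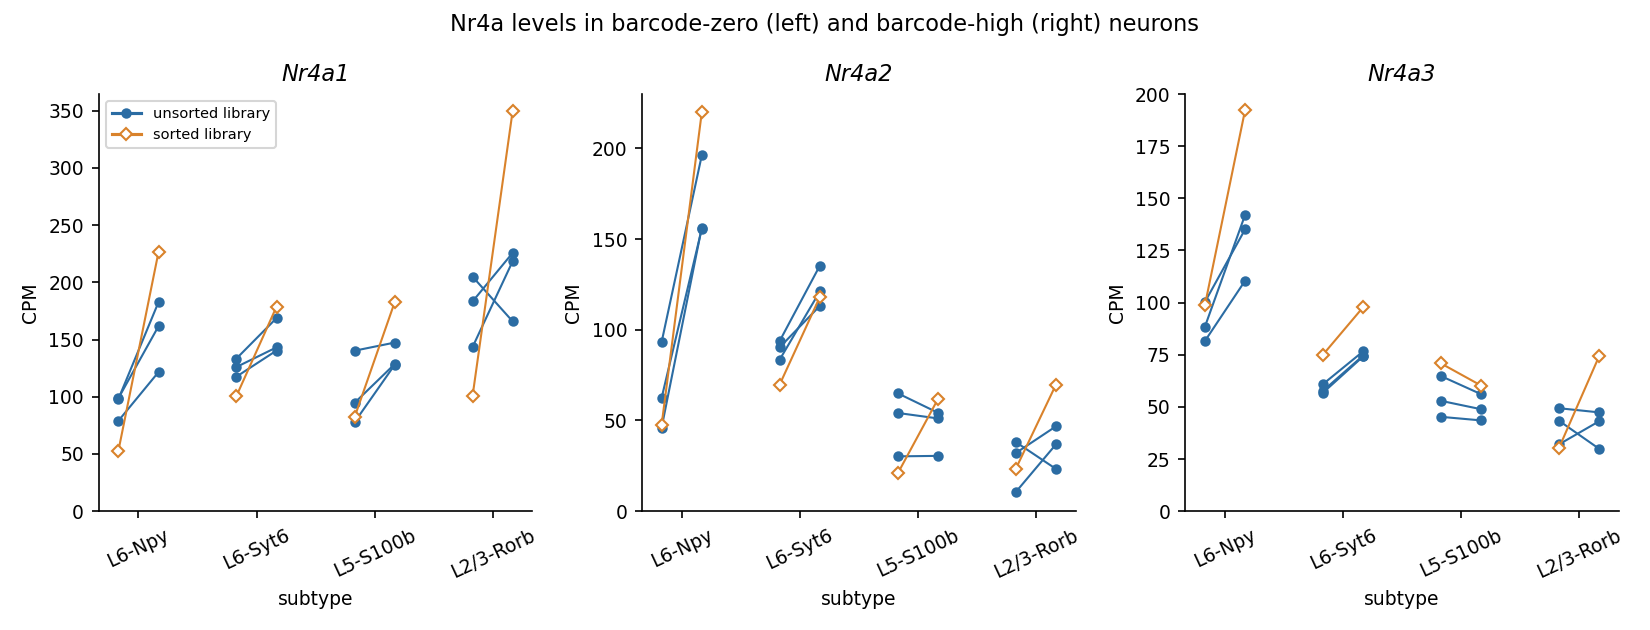
CPM of each Nr4a gene (y axis, separate scale for each gene) in barcode-zero neurons (left point) and barcode-high neurons (right point) of 4 subtypes (x axis), with a line for each library, the sorted one in open diamonds. In L6-Npy and L6-Syt6 every line rises for every gene, whereas in L5-S100b all 4 lines of Nr4a3 descend.

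To see how the members relate to neuronal activity genes regardless of the virus, neurons of at least 10000 UMIs were ranked in each library by the UMIs of the activity list after thinning, and the top 25% were compared with the bottom 25%. All 3 members rose in all 4 subtypes tested, in 4 of 4 libraries with no overlap and adjusted p of at most 1.28e-11, beside 10.8% of genes called in L6-Syt6, 5.28% in L6-Npy, 7.38% in L5-S100b and 3.06% in L2/3-Rorb. The members are known immediate-early genes and the list holds immediate-early and early-response genes. The direction was therefore foreseeable, and these p-values add little to it.

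L6-Npy showed the widest range. Nr4a2 was at 10.3, 3.73, 3.48 and 7.22 CPM in the bottom and 367, 455, 373 and 426 CPM in the top 25%, with the sorted library last, a log2 fold change of 6.06 ± 0.13 (adjusted p = 9.8e-31). Nr4a1 had 12.5 to 18.9 CPM at the bottom and 283 to 418 CPM at the top (4.69 ± 0.10, adjusted p = 1.53e-30). Nr4a3 had 53.6 to 87.2 CPM at the bottom, so that it was present in neurons with few activity transcripts, and 197 to 302 CPM at the top (1.99 ± 0.08, adjusted p = 1.56e-21). In these top neurons 61.6% to 75.4% were barcode-high, against 18.8% to 41.2% at the bottom. Of 6 tested corticothalamic genes 2 rose with this split, Foxp2 (2.59 ± 0.54) and Rprm (0.89 ± 0.24). Of 6 tested Car3-type genes 1 fell, Oprk1 (fell by 1.19). The part of the barcode and of these genes in this result was not tested.

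The other subtypes had the same order of fold changes for Nr4a3, which changed least in each. In L6-Syt6 Nr4a2 went from 22.2 to 31.9 CPM at the bottom to 256 to 301 CPM at the top (3.58 ± 0.05), Nr4a1 from 28.7 to 38.7 CPM to 266 to 375 CPM (3.35 ± 0.05) and Nr4a3 from 34.4 to 49.8 CPM to 122.8 to 198 CPM (1.97 ± 0.05). With this split of L6-Syt6 neurons, 3 of 5 tested L6b genes fell, Cplx3, Nxph4 and Kcnab1. The barcode-high share was 49.5% ± 21.1 at the top and 25.6% ± 8.1 at the bottom, depth 27418 against 24770 UMIs per neuron and mitochondrial UMIs 4.77% against 5.59%. In 4 of 4 libraries the top had the larger barcode-high share, the greater depth and the smaller mitochondrial share, and their part was not tested. In L5-S100b the log2 fold changes were 3.78 ± 0.12 for Nr4a2, 3.71 ± 0.09 for Nr4a1 and 1.34 ± 0.11 for Nr4a3. In L2/3-Rorb they were 4.01 ± 0.19, 2.97 ± 0.09 and 2.45 ± 0.16, and Nr4a1 kept 38.5 to 79.5 CPM in the bottom 25% there. Marker genes were called in these splits too. In L5-S100b 3 of 6 tested Car3-type genes fell, Oprk1, Nnat and Gnb4, and of 7 corticothalamic genes 2 rose and 1 fell. In L2/3-Rorb 1 of 5 tested Car3-type genes rose, Nnat, as did 2 of 5 corticothalamic genes, Foxp2 and Rprm. In L6-Syt6 1 of 5 Car3-type genes rose and 1 fell. Their part, and differences between members or subtypes in these folds, were not tested.

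The list of genes known to act upstream of Nr4a transcription held 16 (CREB, its coactivators, MEF2 and SRF factors, calcium kinases, calcineurin and class IIa deacetylases). Of these, 2 rose and 1 fell in the activity split of L6-Npy, beside 5.28% of all genes called. In L2/3-Rorb 2 rose, beside 3.06%, in L6-Syt6 1 rose, beside 10.8%, and in L5-S100b none was called, beside 7.38%. In the activity split Srf rose in L6-Npy (1.11 ± 0.16), L2/3-Rorb (0.96 ± 0.23) and L6-Syt6 (0.69 ± 0.07), and Hdac5 rose in L6-Npy (0.60 ± 0.13) and L2/3-Rorb (0.61 ± 0.18), while Crtc3 fell by 0.60 in L6-Npy, all on the log2 scale. No other gene of these 16 was called in the 4 activity splits, and none in any tested barcode contrast within a subtype. Camk4, a calcium-dependent kinase, was called in the difference of the barcode effect between L6-Syt6 and L5-S100b (-0.52 ± 0.08). Of the partners, the retinoid X receptors Rxra, Rxrb and Rxrg and the corepressor genes Rcor1, Ncor1, Hdac1 and Kdm1a, only Rxrg in the activity split of L5-S100b was called, where it fell by 1.04 on the log2 scale, and none in the barcode contrasts.

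**Figure D4:**
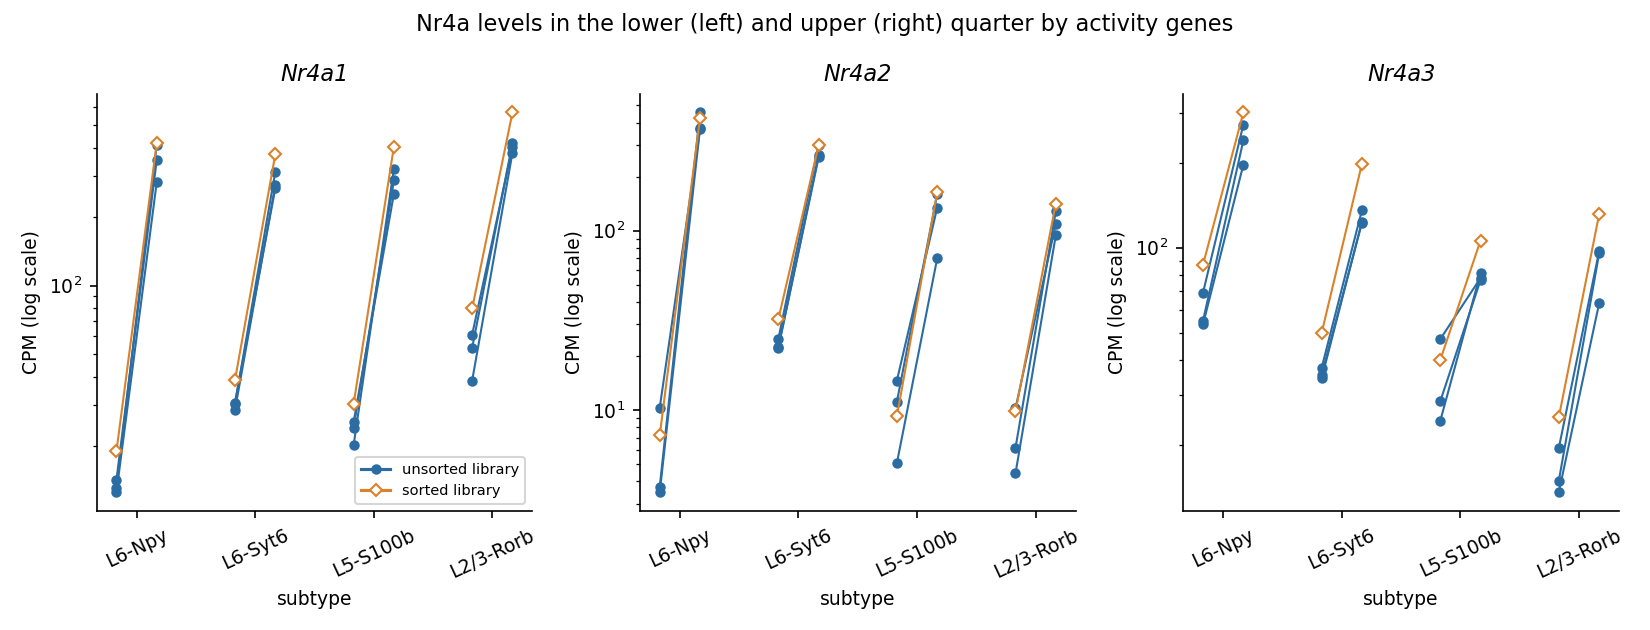
CPM of each Nr4a gene on a log scale (y axis, separate scale for each gene) in the bottom 25% (left point) and top 25% (right point) of neurons by activity genes in 4 subtypes (x axis), with a line for each library, the sorted one in open diamonds. Every line rises, most steeply for Nr4a2 in L6-Npy.

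The barcode contrast was then taken separately among neurons above and below the median of the activity list in each library, a comparison added after the data had been seen. In L6-Npy neurons below the median, Nr4a2 had 6.33 to 20.0 CPM in barcode-high and 5.81 to 18.7 CPM in barcode-zero neurons, which overlapped almost fully. Few UMIs stand behind levels this low in 33 or 34 barcode-zero neurons per library, so a difference there could go unseen. Above the median it had 259 to 326 CPM in barcode-high and 78.3 to 208 CPM in barcode-zero neurons, with no overlap, although the latter numbered only 14 to 29 per library and had a lower median activity score (67.8 against 78.3 UMIs of the list per neuron). The fitted log2 fold changes of Nr4a2 were 0.12 below and 1.11 above the median, those of Nr4a3 -0.10 and 0.71, and those of Nr4a1 0.55 and 0.52.

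In L6-Syt6 neurons below the median the direction of Nr4a2 turned: 19.5 to 23.2 CPM in barcode-high against 25.2 to 31.3 CPM in barcode-zero neurons, with no overlap, a log2 fold change of -0.40 ± 0.09 (adjusted p = 0.0226) that stayed under the fold limit. Above the median it was 0.36 ± 0.06 (adjusted p = 0.000178), also under the limit, with 169.6 to 208 against 134 to 183 CPM and higher values in 3 of 4 libraries. In this upper group the barcode-high neurons again had the higher activity score (99.6 against 87.3). In these comparisons 2.01% of genes were called below and 1.02% above the median. In L5-S100b no member passed on either side, where 2.41% and 0.160% of genes were called, and Nr4a1 gave 0.26 ± 0.19 below and 0.08 ± 0.11 above the median in place of 0.57. In its neurons above the median Nr4a2 was lower in barcode-high neurons of the 3 libraries with 10 or more cells in each group, with 48.4 to 89.9 against 73.6 to 141 CPM.

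**Figure D5:**
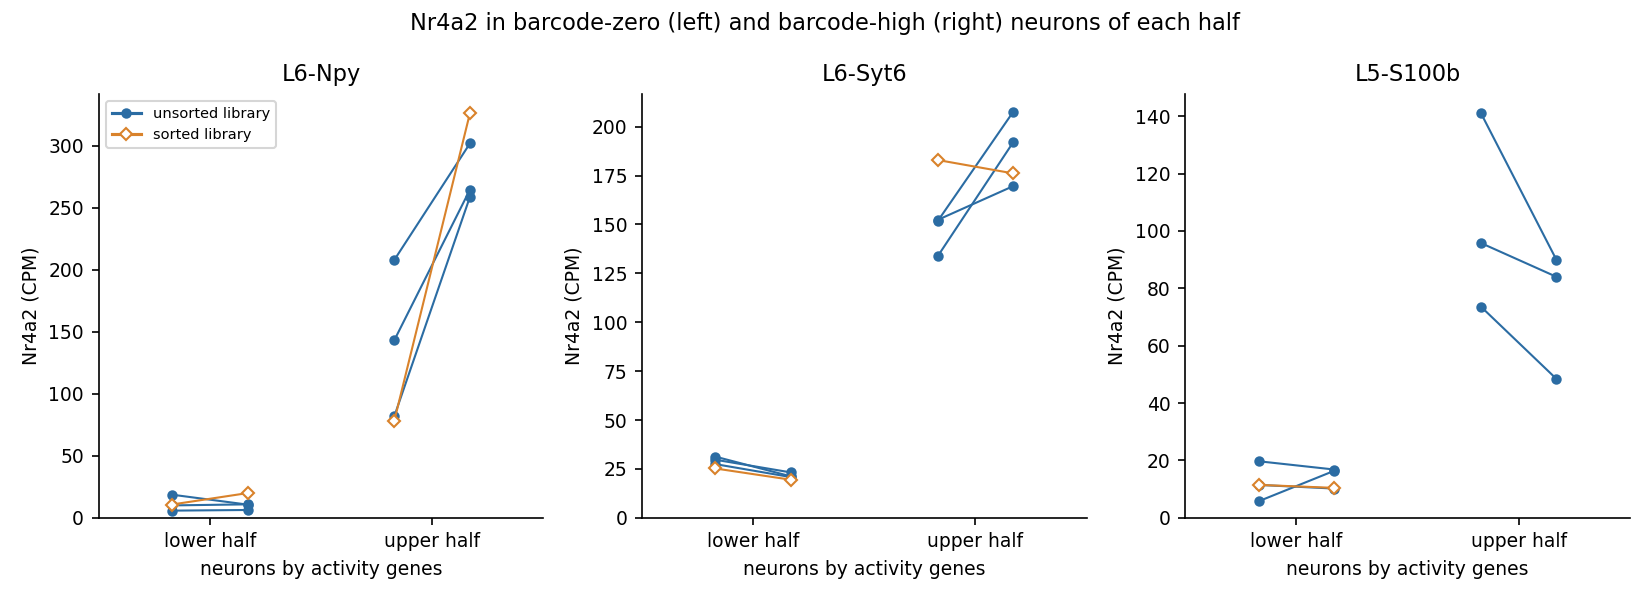
CPM of Nr4a2 (y axis) in barcode-zero (left point) and barcode-high (right point) neurons below and above the median of the activity list (x axis) in L6-Npy, L6-Syt6 and L5-S100b, with a line for each library, the sorted one in open diamonds and absent where a group had under 10 neurons. Below the median the levels lie under 35 CPM in all 3 subtypes, and above it L6-Npy shows the widest gap.

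Since Nr4a2 is known as a marker of claustrum, layer 6 Car3-type and layer 6b neurons, L6-Npy neurons were also ranked by those marker lists. In the top 25% by the Car3-type list, Nr4a1 had 100.6 to 109.2 CPM against 122.6 to 206 CPM in the bottom 25% and fell by 0.62 ± 0.08 on the log2 scale (adjusted p = 1.71e-12), lower in 4 of 4 libraries, the 1 call of 3 beside 6.69% of 10347 genes, and a call lost without the library as a block (adjusted p = 0.0863). Nr4a2 had 94.1, 104, 151 and 114 CPM at the top and 159, 199, 123.3 and 141 CPM at the bottom, lower in 3 of 4 libraries, with a log2 fold change of -0.39 ± 0.08 (adjusted p = 3.55e-05) under the fold limit. It passed without the third unsorted library (-0.64), with neurons divided at the median (-0.73) and after thinning (-0.53). Nr4a3 gave -0.09 ± 0.08 (adjusted p = 0.548). With the list went 6 activity genes that fell, among them Cyr61 (fell by 3.43) and Egr2 (fell by 0.68), and 1 that rose, Jun (0.67 ± 0.04). Cyr61 is the gene that the paper also names as an L6-Syt6 marker. Barcode-high neurons made up 35.6% to 48.5% of the top and 46.2% to 61.8% of the bottom. The top neurons also had fewer UMIs (20236 against 23068 per neuron) and a larger mitochondrial share (7.46% against 6.94%) in 4 of 4 libraries, and the part of these values was not tested. Camk4 fell by 0.99 and, of the corticothalamic list, Foxp2 and Rprm fell by 2.40 and 1.97, and their part in the Nr4a values was not tested.

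Of the 8 Car3-type genes in the matrices 6 were tested and only Nnat and Oprk1 were called in their own split. By the L6b list, of which 2 genes, Kcnab1 and Inpp4b, were tested, no member passed, beside 0.361% of 10258 genes. Nr4a2 gave 0.28 ± 0.14 (adjusted p = 0.617), and without the sorted library 0.67 ± 0.11 (adjusted p = 0.00681).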

How the data were processed

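The members and gene lists were chosen with earlier results of these data known. The authors aligned the reads with Cell Ranger 3.0.2 to mm10 with the viral barcodes added, and deposited raw UMI counts per cell (unit counts) with a metadata table giving subtype, UMI totals and the percent of mitochondrial counts, also as deposited by the authors. Cells with 500 to 8000 genes, 1000 to 60000 UMIs and under 20% mitochondrial counts were clustered with scanpy 1.11.5 (2000 variable genes, 30 components, 15 neighbours, resolution 1.0) without the Nr4a and activity genes. Of 37 clusters 25 were named from marker lists and 12, with 1295 cells, were not. No doublet caller was run, so doublets may remain among cells of high UMI totals.

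UMI counts of the cells of a group were added up within each library, leaving out the viral feature, where both groups had at least 10 cells in at least 3 libraries. Groups were compared with edgeR 4.0.16 in R 4.3.3 (TMM factors, filterByExpr, quasi-likelihood F test, library as block, since both sums come from 1 library), with Benjamini-Hochberg adjustment over all genes tested. SE is the absolute log2 fold change over the square root of F, and errors of levels are SD over libraries. With the library as block, p-values measure how the difference between paired sums varies, with a dispersion that edgeR draws partly from all genes. An SE can therefore be smaller than the spread over libraries. For Nr4a1 by the Car3-type list, the log2 ratios of single libraries ran from -0.92 to -0.28 (SD 0.34). For Nr4a2 in the activity split of L6-Npy they ran from 5.03 to 6.59 (SD 0.71). The steps were tested on simulated data. Lists are described by counts, median and up to 4 called genes of largest change, and the 5 genes most alike were named per member, leaving out items that are not reported here. DESeq2 1.42.0, other size factors, no filter, thinning to 10000 UMIs, other limits and leaving out each library were alternatives.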

Additional observations from a re-analysis of the deposited data

Results flagged for a closer look

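The barcode effect on Nr4a3 differed between L6-Syt6 and L5-S100b neurons by an interaction test, with a log2 difference of 0.53 ± 0.11 (edgeR, adjusted p = 0.00600). Nr4a3 had 74.2, 74.6, 76.6 and 97.8 CPM in barcode-high and 56.8, 57.7, 60.9 and 75.0 CPM in barcode-zero L6-Syt6 neurons, higher in each library, with the sorted library last. In L5-S100b it had 43.5, 48.9, 56.1 and 60.2 CPM in barcode-high and 45.2, 52.9, 64.8 and 70.8 CPM in barcode-zero neurons, lower in each. The adjusted p ran from 0.0517 to 0.203 without either the second or the third unsorted library, after thinning, with any viral UMI counted as high and without the library block. In the same fit 3 of 6 tested Car3-type genes passed in the positive and 2 corticothalamic genes and 1 L6b gene in the negative direction, and their part was not tested.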

How the results depend on the processing

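All values are log2 differences. Over the members' results, 389 alternative values were counted as unchanged. That meant the same side of the threshold, with no change of sign in a called result. For the untested barcode contrast of L6-Npy it meant a value within 1 SD of the log2 ratios of single libraries. The activity splits, foreseeable in direction, are among the 389. Another 12 values passed the threshold where the reported value did not, 18 no longer passed it, 1 moved by more than the spread and 2 reversed. The 2 reversals, chosen after seeing the data, were among neurons below the activity median: Nr4a2 in L6-Syt6 (-0.40) and Nr4a3 in L6-Npy (-0.10), where Nr4a2 moved to 0.12. Above the median Nr4a2 in L6-Syt6 was 0.36 and no longer passed, nor did Nr4a1 in L5-S100b below (0.26) or above it (0.083). With the library left out as a replicate block, although both sums of a pair come from 1 library, Nr4a2 in L6-Syt6 (0.55), Nr4a1 in L5-S100b (0.58), Nr4a1 by the Car3-type list (-0.62) and the Nr4a3 interaction (0.54) did not pass, and no other call of a member changed among the fits that held it. Nr4a2 in L2/3-Calb1 did not pass the filter on low counts without the block, after thinning or without the first or the third unsorted library, and has no value there. Thinning ended the calls of Nr4a1 in L5-S100b (0.47) and of the Nr4a3 interaction (0.56), and gave one to Nr4a2 by the Car3-type list (-0.53), as did division at the median (-0.73). With any viral UMI taken as high, Nr4a2 in L6-Syt6 (0.32) and L2/3-Calb1 (1.43) and the Nr4a3 interaction (0.30) did not pass, and DESeq2 did not call Nr4a2 in L2/3-Calb1 (1.92). Without the filter on low counts, Nr4a1 (0.53) and Nr4a2 (0.73) passed in L2/3-Rorb. The causes were not tested.

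Leaving out each library gave, for the results that crossed the threshold, these ranges: Nr4a1 0.056 to 0.81 in L2/3-Calb1, 0.21 to 0.78 in L2/3-Rorb, -0.036 to 1.42 in L5-Bcl6 and 0.40 to 0.77 in L5-S100b. Those of Nr4a2 were 0.41 to 1.20 in L2/3-Rorb, 0.49 to 0.64 in L6-Syt6, -0.64 to -0.23 by the Car3-type list, 0.070 to 0.67 by the L6b list and 0.24 to 0.62 for the interaction with L5-S100b. The Nr4a3 interaction ran from 0.50 to 0.55. The activity splits of all members stayed called under every alternative.

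The number of genes called varied more: 25 to 325 over the alternatives for the barcode in L6-Syt6 (225 reported, 29 without the second unsorted library), 56 to 355 in L5-S100b (318), 0 to 35 in L2/3-Rorb (15), 2 to 32 in L2/3-Calb1 (16) and 0 to 31 in L5-Bcl6 (6, with 601 genes at an unadjusted p under 0.05). The ranges were 76 to 500 (395) and 8 to 153 (84) for the interactions with L5-S100b and L2/3-Rorb, 244 to 738 (692) for the Car3-type and 2 to 63 (37) for the L6b split, and 751 to 1477 (1376) in L6-Syt6, 350 to 884 (817) in L5-S100b, 248 to 615 (540) in L6-Npy and 93 to 331 (295) in L2/3-Rorb for the activity splits. Barcode-zero groups of 15 to 60 neurons in L2/3-Rorb, L2/3-Calb1 and L5-Bcl6 limit what could be detected there.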
